A study of Mus musculus with 14 samples.

Results

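The genes described here are the V segments and constant genes of the T cell receptor loci that gave reads in 14 CT26 tumors. They were selected on the expected count summed over the 14 tumors, which had to reach 3, among the annotated V, J, and constant genes of the alpha, beta, gamma, and delta loci. Of 258 such genes, 84 were selected, from 53801 genes in all. They comprise 52 genes of the alpha locus (TRA, 51 V segments and the constant gene), 20 of the beta locus (TRB, 18 V segments and 2 constant genes), 8 of the gamma locus (TRG, 4 V segments and 4 constant genes), and 4 of the delta locus (TRD, 3 V segments and the constant gene). Of the genes left out, 33 had a sum above 0 and 141 had none. Just inside the minimum, Trdv1, Trav6-1, Trav6d-7, Trav11d, Trav6n-7, and Trav6d-3 had a sum of 3. Just outside it, Trav15n-1 had 2.5 and Trav6n-5 had 2.32. Since the sum selected the members, the sums are given as a description only.

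CT26 is a mouse colon carcinoma line. Female Balb/c mice of 6 to 8 weeks received 250000 barcoded CT26 cells at each flank. Treatment began on day 7 with 200 µg of antibody, given every 3 days for 5 doses, and the harvest followed the last dose by 3 days. Control IgG (clone 2A3) was given to the mice of 5 tumors from 4 mice (14L, 14R, 16R, 17R, and 20R). Anti-PD-1 (clone 1A12) was given to the mice of 5 responders from 4 mice (24L, 26R, 30L, 30R, and 35L) and 4 non-responders from 3 mice (29L, 32R, 33L, and 33R). Both anti-PD-1 groups were set apart by tumor size at the end relative to the control median, so that response was not assigned before treatment. All the tumors came from the same barcoded population, and L and R tumors with the same number shared a mouse. Total expected counts ranged from 33237744 to 48481461 per tumor, and no tumor was left out.

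A T cell assembles each chain of its receptor by joining 1 V segment to a J segment, with a D segment between them in the beta and delta chains, and the joined segment is spliced to a constant gene. Most T cells carry an alpha and a beta chain, and a smaller population carries a gamma and a delta chain. The V segment that a clone has chosen is inherited by its progeny, so that an expanded clone adds transcripts of its own V segments. The receptor reaches the surface with the CD3 chains, which carry the signal into the cell. Gamma and delta constant genes can also be transcribed in cells without a gamma-delta receptor, among them alpha-beta T cells and NK cells.

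The sequences limited what could be counted. All 74 J segments, annotated at 29 to 72 bases, had an effective length of 0 and no counts, since the mean fragment length was 268.7 to 287.8 bases. The whole of Trbj2-7 (chr6:41543810-41543856, plus strand) is shown as an example, with the codons of the phenylalanine and first glycine of the J motif in capitals. Sequences and positions here are those of GENCODE M21 on GRCm38 (mm10). Whether the Balb/c mice carry the same segments, copies, and bases was not tested.
Trbj2-7: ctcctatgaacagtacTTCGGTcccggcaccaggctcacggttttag
No annotated transcript joins a V segment to a constant gene, so that the counts describe V segments and constant genes one by one and not receptor chains or clones.

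Of the beta V segments whose counts gathered in single tumors or mice, 5 are shown by their last 60 bases, all on the plus strand of chromosome 6 (Trbv14 at chr6:41135557-41135616, Trbv15 at chr6:41141599-41141658, Trbv4 at chr6:41059827-41059886, Trbv13-1 at chr6:41116409-41116468, and Trbv29 at chr6:41271822-41271881). Capitals mark the cysteine codon at which the third complementarity-determining region starts, the part of the chain that joining completes.
Trbv14: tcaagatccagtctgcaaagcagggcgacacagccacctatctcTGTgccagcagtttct
Trbv15: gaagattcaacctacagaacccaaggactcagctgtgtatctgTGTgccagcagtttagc
Trbv4: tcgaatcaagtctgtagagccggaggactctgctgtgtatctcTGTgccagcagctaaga
Trbv13-1: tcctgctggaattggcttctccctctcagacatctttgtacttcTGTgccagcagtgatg
Trbv29: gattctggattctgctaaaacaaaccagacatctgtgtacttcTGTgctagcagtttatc

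Some members are copies whose reads cannot be separated. Trav9d-3 (last bases at chr14:52921053-52921112) and Trav9n-3 (chr14:53232043-53232102) were identical over all 575 bases of their transcripts.
Trav9d-3: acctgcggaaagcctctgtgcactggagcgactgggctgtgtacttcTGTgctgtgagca
Trav9n-3: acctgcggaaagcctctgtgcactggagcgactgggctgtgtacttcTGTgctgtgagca
They received the same expected count in each of the 14 tumors. The first exons of the beta constant genes Trbc1 and Trbc2 differed at 1 of 375 bases, in capitals in the stretches at chr6:41538417-41538536 and chr6:41546929-41547048.
Trbc1: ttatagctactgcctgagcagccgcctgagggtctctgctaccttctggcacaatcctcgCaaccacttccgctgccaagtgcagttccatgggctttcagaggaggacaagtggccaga
Trbc2: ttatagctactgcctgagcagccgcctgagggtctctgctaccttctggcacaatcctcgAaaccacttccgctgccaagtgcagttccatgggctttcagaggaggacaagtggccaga
The gamma constant genes Tcrg-C1 (chr13:19214103-19214222, plus strand) and Tcrg-C2 (chr13:19307432-19307551, minus strand) differed at 9 of the 330 bases of their first exons, 2 of them in the stretch shown.
Tcrg-C1: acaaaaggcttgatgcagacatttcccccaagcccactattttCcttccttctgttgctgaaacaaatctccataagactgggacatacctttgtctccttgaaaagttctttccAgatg
Tcrg-C2: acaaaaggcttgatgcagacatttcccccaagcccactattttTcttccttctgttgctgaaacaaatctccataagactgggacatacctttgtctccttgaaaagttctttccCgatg
Trbc1 and Trbc2 had counts with a fraction in all 14 tumors, while the counts of the gamma constant genes were whole. Fractions occurred in 23 members, 19 of them TRA V segments. The division of beta constant reads between Trbc1 and Trbc2 is therefore uncertain, and their sum is less so.

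Receptor transcripts were sparse and came mostly from the constant genes. The 84 members held 11799 expected counts in all 14 tumors together, of which 79.0% lay on the 8 constant genes. Only 13 members had counts in every tumor, 6 of them V segments, and 52 members had fewer than 20 counts over all tumors. Under edgeR's filter on low counts 11 members were tested, namely Trac, Trbc1, Trbc2, Trdc, Tcrg-C1, Tcrg-C2, Tcrg-C4, Trav3-3, Trbv14, Trbv19, and Trgv2. The other 73 were too low to test and are described by their counts.

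Responders held more receptor transcripts than non-responders, of the alpha-beta and of the gamma-delta kind. The members of the alpha and beta loci together held 30.8, 17.6, 20.8, 24.4, and 23.8 CPM (counts scaled to a common library total, here without further factors) in responders 24L, 26R, 30L, 30R, and 35L. In non-responders 29L, 32R, 33L, and 33R they held 11.3, 12.2, 10.5, and 13.7, and in control tumors 14L, 14R, 16R, 17R, and 20R 20.1, 16.3, 9.31, 12.6, and 9.18. Each responder lay above each non-responder, while control tumor 14L reached into the responder range and 14R, at 16.3, lay below it. The means were 23.5 ± 4.91 (SD, n = 5) in responders, 11.9 ± 1.35 (SD, n = 4) in non-responders, and 13.5 ± 4.70 (SD, n = 5) in the control tumors. On the log2 scale responders exceeded non-responders by 0.96, beside a pooled SD within the groups of 0.25. In bulk tumors, more T cells and more receptor RNA per T cell cannot be told apart.

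The gamma and delta loci together held 7.96, 4.69, 6.28, 4.72, and 5.02 CPM in the 5 responders. They held 2.74, 2.46, 2.77, and 3.49 in non-responders and 4.46, 4.66, 2.41, 2.54, and 2.78 in the control tumors. Responders again lay above the non-responders without overlap, and their lowest value stood barely above the highest control value. The log2 difference between responders and non-responders was 0.98, beside a pooled SD of 0.28. The mean of each locus taken alone was also higher in responders. The mean of TRA was 5.72 CPM in responders and 2.63 in non-responders, that of TRB 17.8 and 9.28, that of TRG 2.73 and 1.26, and that of TRD 3.01 and 1.60. These are sums over selected genes and were not tested.

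The balance between both kinds of receptor overlapped in the 3 groups. Gamma-delta loci made up 20.5, 21.1, 23.2, 16.2, and 17.4% of receptor counts in the responders. The share was 19.5, 16.8, 20.9, and 20.3% in non-responders and 18.2, 22.3, 20.6, 16.8, and 23.2% in the control tumors. The ranges lay over each other, with means of 19.7 ± 2.83% (SD, n = 5), 19.4 ± 1.79% (SD, n = 4), and 20.2 ± 2.70% (SD, n = 5). Counting error alone gave each tumor an interval of several points, from 14.3 to 18.2% in 30R to 19.7 to 27.0% in 20R (exact 95% binomial, which covers counting error only, since reads without molecular identifiers are not independent molecules). The share depends on transcript length. Trdc is annotated with a transcript of 3865 bases, while the mean annotated length of Trac is 533 bases. In TPM, which divides by length, gamma-delta loci made up 8.32 ± 0.773% in responders, 7.85 ± 1.83% in non-responders, and 8.13 ± 1.28% in the control tumors.

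**Figure D1:**
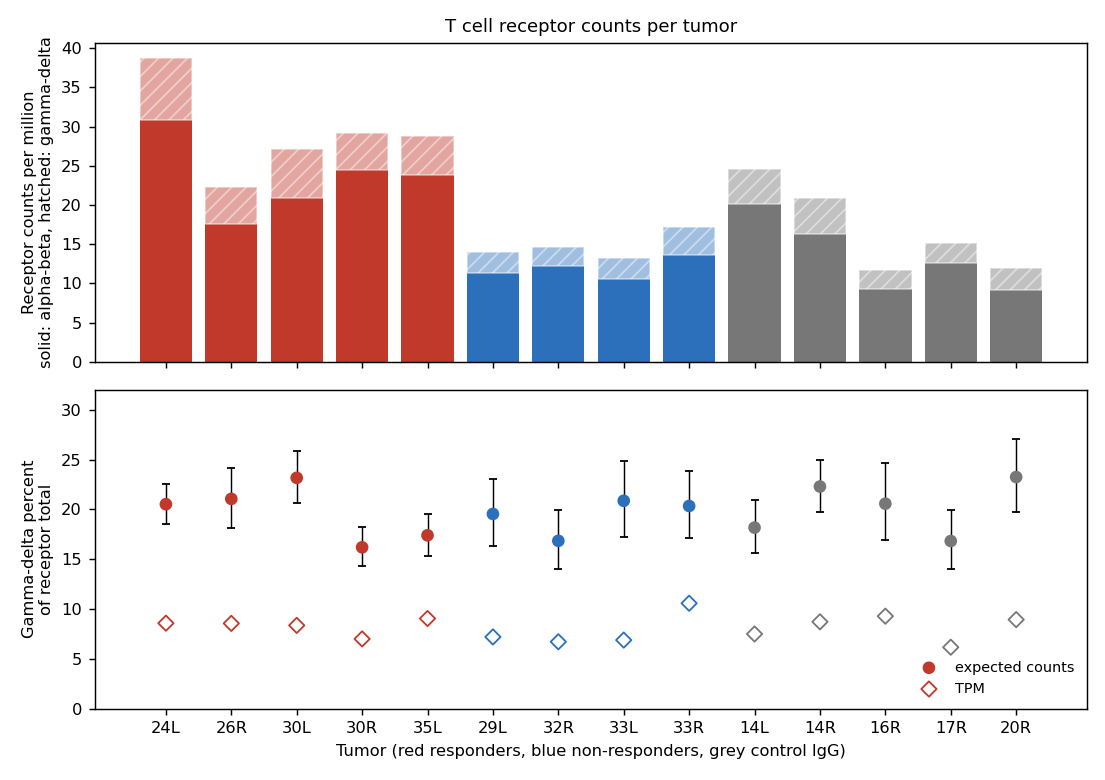
Receptor CPM of the tumor total (upper panel, alpha-beta solid and gamma-delta hatched) and the gamma-delta percent of the receptor total (lower panel, filled circles from expected counts with exact 95% intervals, open diamonds from TPM) for each of the 14 tumors. The 5 responders stand at 17.6 or more alpha-beta CPM and the 4 non-responders at 13.7 or less, while the gamma-delta percent overlaps in all 3 groups.

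The receptor counts were also set against those of the CD3 genes. For each 100 counts on Cd3d, Cd3e, Cd3g, and Cd247 together, the alpha-beta loci held 94.5 ± 6.86 counts in responders, 107 ± 17.6 in non-responders, and 109 ± 14.5 in the control tumors. The gamma-delta loci held 23.2 ± 4.14, 25.9 ± 6.09, and 28 ± 6.71. On this scale the log2 difference between responders and non-responders was -0.17 for the alpha-beta and -0.15 for the gamma-delta loci, so that responders were higher relative to all counts but not relative to the CD3 counts.

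Trac, the single constant gene of the alpha chain, was the receptor gene that was higher in responders than in both other groups. Its level was 4.32, 2.45, 2.22, 4.07, and 3.71 CPM in responders (here and for the single genes that follow with TMM factors). It was 1.92, 1.62, 1.27, and 1.27 CPM in non-responders and 2.75, 1.81, 1.34, 1.62, and 1.01 CPM in the control tumors. The responders did not overlap the non-responders, but 26R and 30L lay below control tumor 14L. The log2 fold change was 1.14 ± 0.29 (SE) against non-responders, with an adjusted p of 0.0269, and 0.98 ± 0.27 against control, with an adjusted p of 0.0268 (edgeR, quasi-likelihood test, Benjamini-Hochberg adjustment over 16287 genes). Responders enter both comparisons, and the fit has no term for tumors that share a mouse. Without responder 24L the adjusted p was 0.0723 against non-responders and 0.0776 against control, and without 30R it was 0.0652 and 0.0671. The comparison with non-responders also lost its call without non-responder 32R, 33L, or 33R (adjusted p of 0.0608, 0.0504, and 0.0708), and the comparison with control lost it without control tumor 16R, 17R, or 20R or responder 35L (0.0646, 0.0574, 0.0701, and 0.0526). The log2 fold changes remained between 0.84 and 1.27 in all of these.

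Over the 11 members tested, 2 were called higher and none lower in responders against non-responders (Trac and Trbv14), where 9.9% of all genes were called and 5.08% were higher. In responders against control 2 were called higher and none lower (Trac and Tcrg-C1), where 13.2% of all genes were called and 7.88% were higher. In non-responders against control no member was called by edgeR, 4 had an unadjusted p under 0.05, and DESeq2 called 1. Among all 16287 genes edgeR called 0% there, 758 had an unadjusted p under 0.05 by edgeR, and DESeq2 called 18. Members entered the test only with enough counts, so these counts do not describe the 84 members.

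Both beta constant genes pointed the same way without passing the test. Trbc2 stood at 12.2, 5.08, 6.38, 6.89, and 7.83 CPM in responders, 4.62, 5.09, 3.57, and 5.11 in non-responders, and 6.97, 6.12, 2.97, 3.63, and 3.35 in the control tumors. Trbc1 stood at 7.85, 5.82, 7.92, 5.82, and 4.86 CPM in responders, 2.28, 3.21, 3.31, and 6.49 in non-responders, and 4.22, 4.90, 3.15, 3.99, and 2.44 in the control tumors. For Trbc1, non-responder 33R and control tumor 14R reached into the responder range, and for Trbc2 responder 26R lay within the range of both other groups. The log2 fold changes against non-responders were 0.74 ± 0.29 for Trbc2 (adjusted p = 0.109) and 0.76 ± 0.28 for Trbc1 (adjusted p = 0.0951), both by edgeR. Against control they were 0.74 ± 0.27 (adjusted p = 0.0822) and 0.79 ± 0.26 (adjusted p = 0.061). Trbc1 received 38.3 to 55.4% of the beta constant counts in responders, 33.1 to 56.0% in non-responders, and 37.7 to 52.4% in the control tumors.

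Among the 8 constant genes, the beta constant genes were the most abundant per transcript length and the gamma and delta constant genes the least. In responders Trbc2 reached 23.3 ± 8.43 TPM, Trbc1 17.6 ± 3.62, and Trac 15.4 ± 5.26 (SD, n = 5), and these neighbours overlapped one another. Tcrg-C2 followed at 2.75 ± 1.38 TPM, then Trdc at 0.95 ± 0.342, Tcrg-C1 at 0.784 ± 0.233, Tcrg-C4 at 0.694 ± 0.461, and Tcrg-C3 at 0.202 ± 0.295. Tcrg-C2 reached at most 4.81 TPM and did not overlap Trac, which was 9.26 TPM or more in responders, while the neighbours after Tcrg-C2 in this order overlapped.

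**Figure D2:**
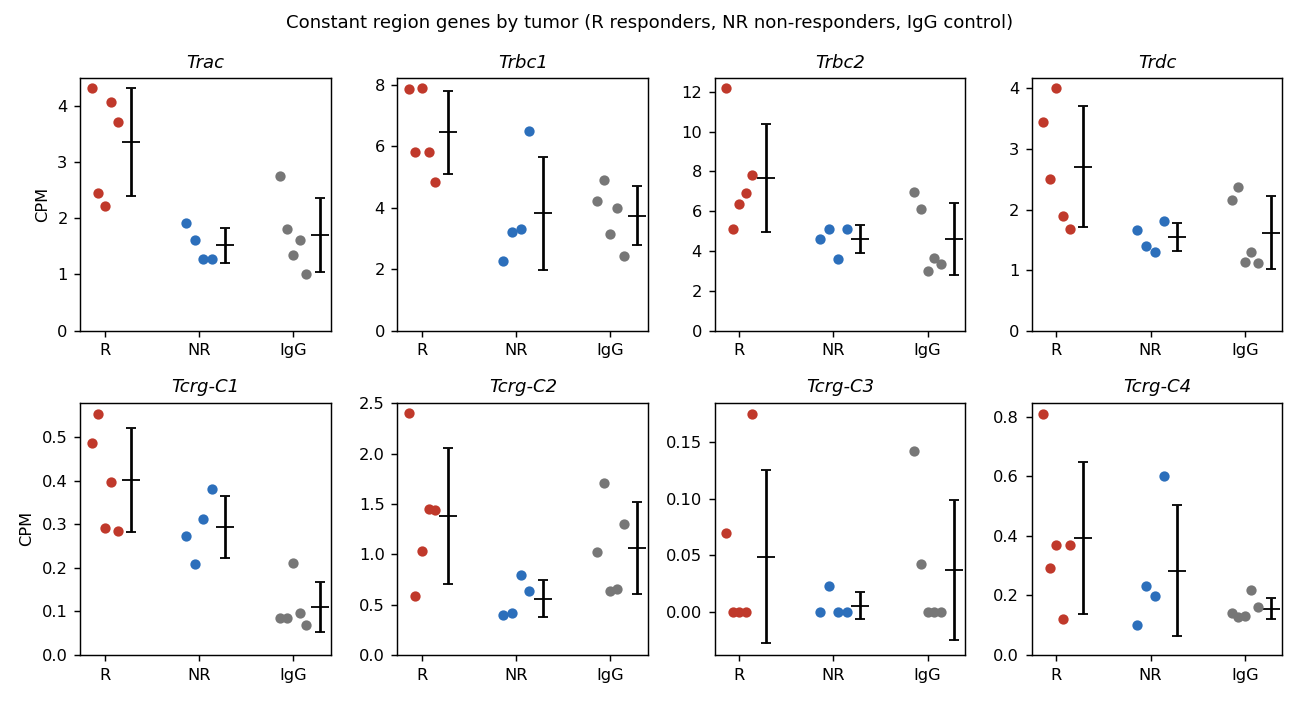
CPM of the 8 constant genes in each tumor (points), with the mean and SD of the group beside them. The responders lie above all non-responders for Trac (2.22 CPM or more against 1.92 or less), and the control tumors lie below all responders for Tcrg-C1.

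Among the gamma-delta constant genes, Trdc encodes the constant part of the delta chain and lies inside the alpha locus (chr14:54142851-54148868), where joining of an alpha V segment to its J segment removes it from the chromosome. It stood at 3.45, 2.51, 4.02, 1.89, and 1.68 CPM in responders, 1.67, 1.39, 1.30, and 1.81 in non-responders, and 2.16, 2.37, 1.13, 1.30, and 1.12 in the control tumors. Responders 30R and 35L lay within the range of the other groups. The log2 fold changes were 0.81 ± 0.30 against non-responders (adjusted p = 0.0996, edgeR) and 0.74 ± 0.28 against control (adjusted p = 0.0989, edgeR).

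Tcrg-C1 is the constant gene of the gamma cluster that holds Tcrg-V4 to Tcrg-V7. Among the members tested it had the lowest adjusted p between responders and control (edgeR). Its expected counts were 21, 19, 11, 20, and 13 in responders, 11, 9, 11, and 12 in non-responders, and 3, 4, 8, 4, and 3 in the control tumors. With at most 8 counts in a control tumor, it passed the filter on low counts through the anti-PD-1 tumors, where it was higher. Its call is therefore not independent of that filter. In CPM, responders lay between 0.283 and 0.554, non-responders between 0.208 and 0.380, and control tumors between 0.0686 and 0.210. Responders and control tumors did not overlap, as was the case for 15.1% of all genes, while non-responder 32R lay just below the highest control tumor. The log2 fold change was 1.86 ± 0.35 between responders and control (adjusted p = 0.00402, edgeR), and it was called without any one of the 14 tumors. Between non-responders and control it was 1.40 ± 0.38 (unadjusted p = 0.00205, adjusted p = 0.878, edgeR). Between responders and non-responders it was 0.46 ± 0.34 (adjusted p = 0.406, edgeR).

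Tcrg-C2, the gamma constant gene with the most counts, differed along another line. It stood at 2.41, 0.583, 1.03, 1.45, and 1.44 CPM in responders, 0.399, 0.417, 0.793, and 0.634 in non-responders, and 1.02, 1.71, 0.631, 0.651, and 1.30 in the control tumors. All control tumors lay within the responder range, while non-responders 29L and 32R lay below the lowest tumor of both other groups and 33L and 33R lay within both ranges. The log2 fold change was 1.31 ± 0.41 between responders and non-responders (adjusted p = 0.0564, edgeR), 0.38 ± 0.37 between responders and control (adjusted p = 0.547), and -0.93 ± 0.41 between non-responders and control (adjusted p = 0.931). Trgv2, the V segment that joins to this constant gene, stood at 0.231, 0.408, 0.317, 0.358, and 0.545 CPM in responders, 0.224, 0.116, 0.0850, and 0.0634 in non-responders, and 0.682, 0.470, 0.184, 0.145, and 0.114 in the control tumors. Responders and non-responders did not overlap, as in 12.8% of all genes, and the log2 fold change was 1.56 ± 0.56 (adjusted p = 0.0879, edgeR).

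The gamma constant counts were also divided by gene. Tcrg-C2 took 63.8, 40.8, 60.9, 73.7, and 63.5% of them in responders, 51.6, 47.4, 60.9, and 39.2% in non-responders, and 73.5, 87.0, 64.9, 67.5, and 85.1% in the control tumors. Non-responders lay below all control tumors. Tcrg-C1 took 12.5 to 38.8% in responders, 23.5 to 35.5% in non-responders, and 4.35 to 21.6% in the control tumors. These shares rest on few counts, and the exact 95% interval of the Tcrg-C2 share ran from 25.8 to 53.9% in 33R and from 78.3 to 93.1% in 14R. Tcrg-C4 had a log2 fold change of 0.49 ± 0.52 between responders and non-responders (adjusted p = 0.572, edgeR) and 1.31 ± 0.51 between responders and control (adjusted p = 0.105). Tcrg-C3 had 8 counts in 35L, 5 in 14L, and 3 or fewer in each other tumor.

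The remaining gamma and delta V segments were near the limit of detection. Trdv4, a V segment whose use is not limited to the epidermal gamma-delta T cells that carry it, had 8, 5, 8, 5, and 6 counts in responders, 3, 7, 1, and 4 in non-responders, and 2, 0, 1, 7, and 2 in the control tumors. Tcrg-V5, its partner in the epidermal cells, had no count in any tumor, which allows up to 3 counts per tumor. Tcrg-V6 had 3 counts in 30R, 5 in 33R, and 2 in 16R, and Tcrg-V3 had 4 in 35L. Trdv2-2 had 16 counts in all, 6 of them in 35L, and Trdv1 had its 3 counts in 30R. Genes of skin epidermis, a tissue that holds Trdv4-bearing cells, summed to 13.0 to 1042 CPM in responders, 142 to 316 in non-responders, and 8.71 to 755 in the control tumors. Of 12 such genes, 0 were called by edgeR in any comparison, with 0 of 12 at an unadjusted p under 0.05 and 0 of 12 by DESeq2.

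Markers of other lymphocytes were set beside the gamma-delta genes and followed only some of them. Ncr1, a receptor of NK cells, stood at 12.9, 9.79, 12.4, 6.87, and 7.98 CPM in responders, 4.68, 6.37, 6.0, and 9.57 in non-responders, and 4.12, 5.02, 4.55, 4.85, and 4.43 in the control tumors. All 5 NK cell genes tested of 6 were called higher in responders than in control, as Tcrg-C1 was, where 7.88% of all genes were higher. None of the 5 was called between responders and non-responders by edgeR, with 2 at an unadjusted p under 0.05 and 1 called by DESeq2. Among all 16287 genes, 4525 had an unadjusted p under 0.05 there by edgeR and DESeq2 called 2634. Between non-responders and control all 5 had a positive log2 difference (median 0.57), with 0 called by edgeR or DESeq2 and 3 at an unadjusted p under 0.05. Among all 16287 genes, 758 had an unadjusted p under 0.05 in that comparison by edgeR. In it the log2 fold change was 1.40 for Tcrg-C1 and 0.82 for Tcrg-C4, but -0.07 for Trdc, -0.93 for Tcrg-C2, and -1.33 for Trgv2. Summed, the 6 NK cell genes ranged from 18 to 33.7 CPM in responders, 13.3 to 22.8 in non-responders, and 10.3 to 14.7 in the control tumors, and Klra8 was at 0 in all tumors. Of 9 other genes used by gamma-delta T cells, 5 were tested. Sox13 and Maf were called higher in responders than in non-responders (5.08% of all genes), and Sox13 and Zbtb16 higher than in control (7.88% of all genes). Il17a was at 0 in all tumors. The list summed to 97.0 to 125 CPM in responders, 63.4 to 87.3 in non-responders, and 67.6 to 97.5 in the control tumors. Maf, which is also expressed in macrophages, supplied most of this sum in every tumor. In responders its mean was 4009 counts, beside 496 for Sox13 and 115 for Zbtb16, so that the sum mainly describes Maf. The part of NK cells and other cells in the gamma-delta counts was not tested. Rag2, needed for joining receptor segments, was at 0 in all tumors, and Rag1 had 2 counts in 16R, 1 in 30R, and none elsewhere. With Dntt and Ptcra, these genes of recombining lymphocytes summed to 0.0850 to 0.342 CPM over all tumors, and Dntt, the only one tested, was not called in any comparison.

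Most genes that carry the receptor signal were higher in responders than in both other groups. Of 24 genes of the CD3 complex, the coreceptors, and the proximal signaling chain, 23 were tested, and 20 were higher and 0 lower in responders than in non-responders (median log2 difference 0.93, beside 0.01 over all genes). Against control 19 were higher and 0 lower (median 0.90, beside -0.01). Of all genes tested, 5.08% were called higher in responders than in non-responders and 7.88% higher than in control. Between non-responders and control 0 were called by edgeR, with 0 at an unadjusted p under 0.05 and 0 by DESeq2 (median -0.05, beside 0.01). Cd3e, a CD3 chain, stood at 3.94 to 6.13 CPM in responders and 1.68 to 2.29 in non-responders, and its log2 fold change was 1.27 ± 0.26 (adjusted p = 0.0123, edgeR). Cd4, the coreceptor of helper cells, had a log2 fold change of 1.40 ± 0.23 (adjusted p = 0.00628), and Cd8a, the coreceptor of cytotoxic cells, 1.19 ± 0.25 (adjusted p = 0.0137). Cd3d did not pass the test against non-responders (0.83 ± 0.28, adjusted p = 0.0724). The lists were chosen with earlier results of these data known and are not independent evidence of a direction. T cell markers were present throughout. In responders 10 of 12 were called higher than in non-responders (5.08% of all genes) and 11 of 12 higher than in control (7.88% of all genes). The 12 genes of that list summed to 61.0 to 105 CPM in responders, 34.7 to 42.4 in non-responders, and 27.1 to 52.8 in the control tumors.

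The leading V segments of the beta locus differed between tumors of the same group. Trbv19 was the segment with the most counts and occurred in all 14 tumors, at 13, 9, 25, 33, and 35 counts in responders, 17, 26, 4, and 6 in non-responders, and 21, 24, 7, 9, and 13 in the control tumors. The groups overlapped, and its log2 fold change between responders and non-responders was 0.65 ± 0.50 (adjusted p = 0.424, edgeR). The leading beta segment was Trbv14 in 14L, 14R, and 30R, Trbv19 in 32R and, level with Trbv29, in 29L, Trbv13-1 in 16R and 35L, Trbv1 in 24L and 33R, and another segment in each of the other 5 tumors. It took 18.3 to 26.1% of beta V counts in responders, 20.0 to 44.8% in non-responders, and 19.8 to 36.9% in the control tumors.

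**Figure D3:**
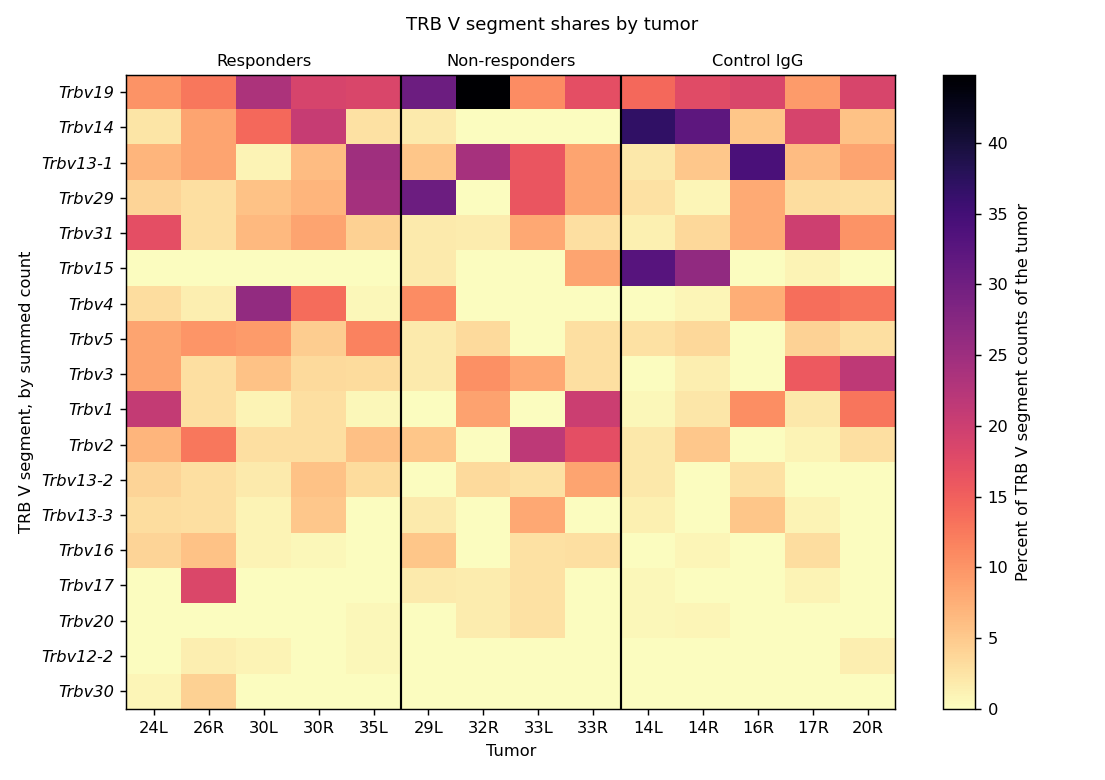
Percent of the beta V segment counts of each tumor that fell on each of the 18 beta V segments, ordered from the top by summed count, with the 3 groups separated by vertical lines. Trbv14 and Trbv15 stand out in both tumors of mouse 14, Trbv4 in both tumors of mouse 30, and Trbv13-1 and Trbv29 in 35L.

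Trbv14 was the V segment that passed the test between responders and non-responders. It passed edgeR's filter on low counts only with the control tumors included, among which 14L and 14R had its highest counts. In the fit of only responders and non-responders it did not pass that filter and was not tested. Its expected counts were 3, 6, 15, 36, and 5 in responders, 1, 0, 0, and 0 in non-responders, and 55, 44, 2, 18, and 4 in the control tumors. Non-responders lay below all tumors of both other groups. Responders and non-responders did not overlap in 12.8% of all genes, and non-responders and control tumors in 1.25%. The log2 fold change was 4.95 ± 1.46 between responders and non-responders (adjusted p = 0.0455, edgeR). As a ratio of summed counts, 65 against 1, responders were 46.1-fold higher, with an exact 95% interval of 7.99 to 1850 that covers counting error only. Tumors 30L and 30R of a single mouse held 51 of the 65 responder counts, and 14L and 14R of another held 99 of the 123 control counts. Without 30R the adjusted p was 0.113, and without 30L it was 0.074. It was above 0.05 without 10 of the 14 tumors in turn, reaching 0.110 without 32R. Against control the log2 fold change was -1.04 ± 0.77 in responders (adjusted p = 0.418, edgeR) and -5.99 ± 1.39 in non-responders (unadjusted p = 0.00068, adjusted p = 0.57). The effective length of Trbv14, the number of positions at which a fragment can start, was 95 to 102 in responders, 86.0 to 94.9 in non-responders, and 94.6 to 103 in the control tumors, so that non-responders had slightly fewer such positions than responders. In TPM Trbv14 stood at 0.88, 2.27, 4.94, 9.98, and 1.39 in responders and at 0.3, 0, 0, and 0 in non-responders.

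Trbv15 was nearly confined to the mouse of 14L and 14R, which held 49 and 36 of its 90 counts. Of the other 12 tumors, 33R had 3 counts, 29L and 17R had 1 each, and the remaining 9 had none. It did not pass the filter on low counts and was not tested. Trbv4, named after its values were seen, had 27.9 and 24 counts in 30L and 30R, 13 in 17R, and 9 in 20R, and at most 5.98 in any other tumor. Trav9d-3 and its identical copy Trav9n-3, named for the same reason, each had 5.5 and 11.5 counts in 30L and 30R and at most 1.5 in any other tumor.

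Some tumors held many counts of other segments. Responder 35L had 47 counts of Trbv13-1 and 46 of Trbv29, where the other responders had 1 to 11 and 2 to 12. It also had 64.7 counts of Trav3-3, where the other responders had 10 to 39, and 11 of the 15 counts of Trav14-1. Responder 24L had 27 of 67 counts of Trbv1, 22 of 96 of Trbv31, and 14 of 20 of Trav6-2, and 26R had 13 of 18 counts of Trbv17. In the non-responders, 29L had 17 counts each of Trbv19 and Trbv29 and 32R had 26 of Trbv19 and 14 of Trbv13-1. Trav14-1, Trbv1, Trav6-2, and Trbv17 were named after their values were seen.

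The unevenness of the V segments was put beside that of the constant genes. For each gene with 20 or more counts, the counts of the 14 tumors were compared with what the tumor's V or constant total and the gene's share over all tumors would give, as a chi-square per degree of freedom, where sampling of reads alone gives about 1. It was 22.9 for Trbv15, 12.0 for Trbv14, 9.86 for Trbv29, 9.85 for Trbv4, 9.37 for Trbv1, and 8.05 for Trbv13-1. Trbv19, the segment with the most counts, had 3.22, and Trbv13-2 had the lowest value of the beta segments, 1.72. Trbc1 and Trbc2 had 4.99 and 4.07 with far more counts. Among 9 alpha segments it ranged from 1.83 for Trav1 to 5.39 for Trav21-dv12. These values are descriptive, since the genes of a locus share the same total.

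Tumors of the same mouse had the more similar V segments in 2 of 3 mice. The shared composition of a pair of tumors was taken as the sum, over segments, of the smaller of the 2 shares. For the beta locus it was 82.6% between 14L and 14R and 74.8% between 30L and 30R, the highest and second highest of 91 pairs. Between 33L and 33R it was 56.2%, the 18th of 91, with only 37 and 35 beta V counts in these tumors. Pairs from different mice of the same group had a median of 48.3% (range 29.4 to 68.7%, 23 pairs), and pairs from different groups 46.8% (23.6 to 71.9%, 65 pairs). For the alpha locus the pair of mouse 30 shared 68.8%, that of mouse 14 68.1%, and that of mouse 33 54.2%, ranks 1, 2, and 13. Pairs from different mice had medians of 39.6% within a group and 40.9% between groups. With alpha segments merged into subgroups, the pair of mouse 30 still ranked 1 (83.6%), while the other same-mouse pairs shared 72.2% and 69.1% (ranks 11 and 13) and pairs from different groups reached 79.7%. In TPM the beta pair of mouse 30 ranked 3. For pairs from different mice, the median within a group and that between groups differed at both loci by less than the range of either kind of pair. No test was made, since pairs share tumors and the comparison was chosen after the data were seen.

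**Figure D4:**
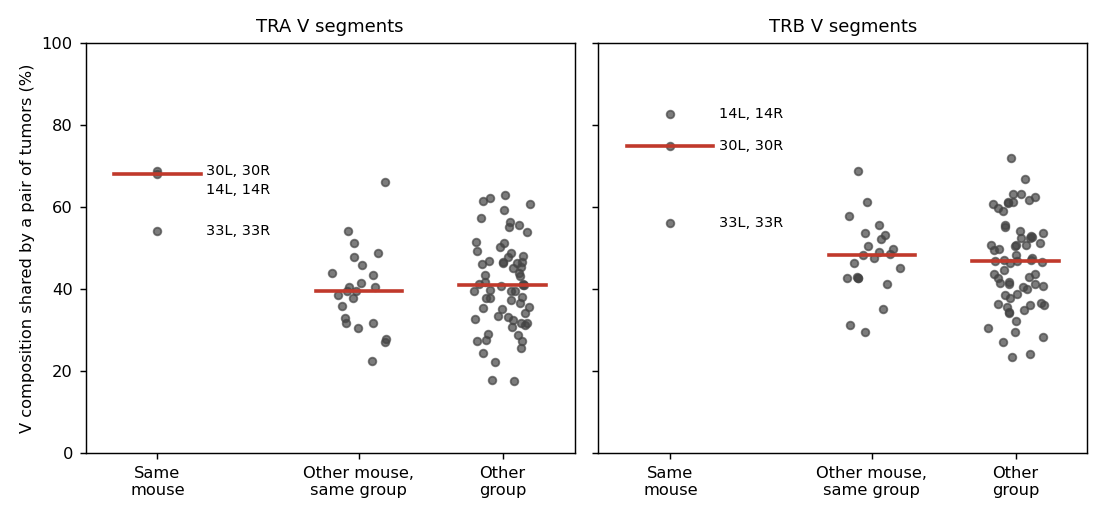
V composition shared by each of the 91 pairs of tumors, for the alpha locus (left) and the beta locus (right), by whether the pair came from the same mouse, from different mice of the same group, or from different groups. Red lines are medians; the pairs from mice 14 and 30 are the 2 highest at both loci.

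Responders showed more alpha V segments, along with more counts on which to see them. With at least 1 rounded count, 28, 23, 20, 28, and 23 alpha V segments were detected in responders, 18, 14, 16, and 12 in non-responders, and 12, 15, 14, 13, and 16 in the control tumors. Each responder lay above each tumor of both other groups. Only members were counted, and the minimum on the summed count favors groups with more counts. Trav9n-4 (8.72 counts) and Trav6-1 (3 counts), for example, reached it through responders alone. The alpha V counts were 107, 56, 57.7, 134, and 117 in responders, 51.2, 57, 43, and 29 in non-responders, and 49, 50, 29.5, 50, and 42.5 in the control tumors. When every tumor was brought to 28 counts by rarefaction, the number expected without replacement, the segments numbered 14.4, 15.4, 13.9, 13.9, and 10.2 in responders, 13.4, 10.3, 13.1, and 12.0 in non-responders, and 9.48, 11.6, 14.0, 10.1, and 13.2 in the control tumors. At this depth the groups overlapped, with means of 13.6 ± 2.01 (SD, n = 5), 12.2 ± 1.43 (SD, n = 4), and 11.7 ± 1.94 (SD, n = 5). Many alpha segments exist as near copies, and with segments merged into subgroups by the number in their name the mean number detected was 11 in responders, 11.5 in non-responders, and 9.8 in the control tumors.

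Fewer beta than alpha V segments were detected in responders. Detected segments numbered 14, 16, 14, 13, and 13 in responders, 13, 9, 11, and 11 in non-responders, and 13, 13, 9, 14, and 11 in the control tumors, of 18 members. At 35 counts per tumor, 11.6, 13.2, 9.64, 10.7, and 8.5 were expected in responders, 10.2, 7.49, 10.8, and 11 in non-responders, and 7.52, 8.37, 8.91, 10.3, and 9.68 in the control tumors. The means were 10.7 ± 1.81, 9.88 ± 1.62, and 8.96 ± 1.09, and the ranges of the 3 groups overlapped. Differences in segment number at 28 and 35 counts were not tested, and the count minimum applied to the beta segments as well.

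**Figure D5:**
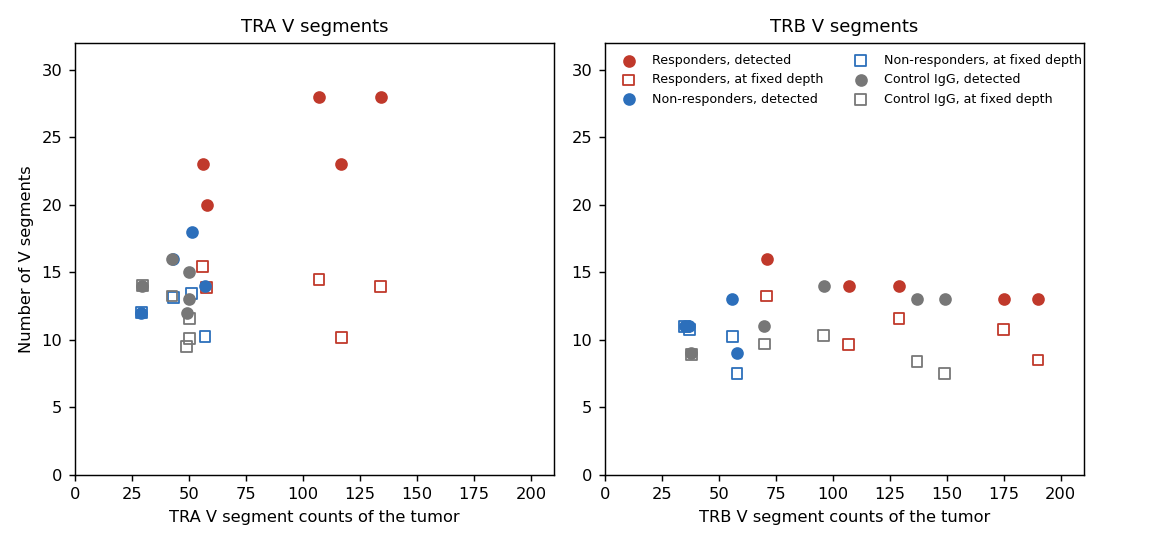
Number of alpha (left) and beta (right) V segments of each tumor against its V segment counts, as detected (filled circles) and as computed for a fixed depth of 28 alpha or 35 beta counts (open squares). The detected number of alpha segments is higher in the responders, which have more counts, and the squares of the 3 groups overlap.

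Dominance varied within each group. Trav3-3 was the leading alpha segment in 12 of the 14 tumors, level with Trav21-dv12 in 33L, the exceptions being 16R (Trav7d-3) and 33R (Trav21-dv12, level with Trav8n-2). It took 19.6, 17.9, 26.0, 29.1, and 55.4% of alpha V counts in responders, 27.7, 36.8, 18.6, and 10.3% in non-responders, and 44.9, 36.0, 13.6, 36.0, and 24.8% in the control tumors. The exact 95% interval was 46.1 to 64.7% in 35L and 8.91 to 30.4% in 26R. The inverse Simpson number, the count of equally used segments that would give the same concentration, was 11.9, 12.2, 9.28, 8.62, and 3.09 in responders, 8.30, 5.19, 9.73, and 8.90 in non-responders, and 4.18, 5.77, 9.99, 5.44, and 8.74 in the control tumors. The lowest and the highest value over all tumors both belonged to responders.

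For the beta locus the inverse Simpson number was 8.74, 10, 6.12, 8.10, and 5.71 in responders, 4.84, 3.56, 7.48, and 7.61 in non-responders, and 3.74, 4.72, 5.33, 7.44, and 7.31 in the control tumors. The means were 7.74 ± 1.81 (SD, n = 5), 5.87 ± 2.0 (SD, n = 4), and 5.71 ± 1.63 (SD, n = 5), and the groups overlapped. The lowest values were those of 32R, where Trbv19 took 44.8% of beta V counts, and of 14L, where Trbv14 took 36.9% and Trbv15 32.9%. In 14R these segments took 32.1% and 26.3%. Richness and dominance were computed over the members and were not tested.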

How the data were processed

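Bulk RNA-seq of 14 tumors was used. Groups were read from the sample labels, and shared mice from the tumor numbers, since the labels do not say which tumors shared a mouse. Per the submitters' processing notes, STAR, RSEM, and mm10 were used. The study's methods give STAR and RSEM at default settings for its cell line libraries and refer to the same sequencing for the tumors. The authors' expected counts, which RSEM divides over genes that share fragments, were deposited without normalization. The authors' TPM values were deposited after scaling by effective length and by the tumor's total. The effective lengths served to estimate the mean fragment length. FPKM was not used.

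Rounded counts were fitted with edgeR 4.0.16 under R 4.3.3 (filterByExpr, TMM scaling, quasi-likelihood test), with all 14 tumors and 3 groups in 1 fit of 16287 genes and an adjusted p threshold of 0.05. Labels do not describe the tumors as separate cultures, and 3 pairs share a mouse. The main fit had no term for the mouse, so that its p-values treat the tumors of a pair as independent. Locus sums, shares, rarefaction, and inverse Simpson numbers used Python 3.11.15 and scipy 1.17.1. Of the 53801 genes, 53620 had a symbol in GENCODE M21. The genes named are the constant genes, the 6 V segments of each locus with the highest sums, and members that passed the test. The members and lists were chosen with earlier results of these data known. The test was tried on simulated counts. Alternatives were DESeq2 1.42.0, limma 3.58.1, other filters, TPM, 1 tumor per mouse, and omission of each tumor.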

Additional observations from a re-analysis of the deposited data

Results flagged for a closer look

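A tumor was flagged when its gap to the nearest tumor of its group was over Dixon's 95% critical value. Of 120 sets of group values examined, 16 were flagged, where chance alone flags about 5%, and values of 0 in the other tumors make a flag more likely. Values are CPM.

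Flags that rest on more than 10 counts were those of Trbv13-1 in responder 35L (1.02, the others 0.0264 to 0.219), Trbv29 in responder 35L (1.0, the others 0.0583 to 0.238), Trbv13-1 in control 16R (0.342, the others 0.0852 to 0.149), and Trbv31 in control 17R (0.458, the others 0.0568 to 0.160).

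Flags that rest on 3 to 8 counts were those of Tcrg-C1 in control 16R (0.210, the others 0.0686 to 0.0965), Trav14d-3-dv8 in responder 30R (0.0993, the others 0.0218 to 0.0291), Trbv31 in non-responder 33L (0.0850, the others 0.0232 to 0.0317), Tcrg-V6 in responder 30R (0.0596) and in non-responder 33R (0.158), Tcrg-V3 in responder 35L (0.0872, the others at most 0.0231), and Trdv1 in responder 30R (0.0596). Where no range is given, the other tumors of the group had no count.

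Flags that rest on 1 or 2 counts, with none in the other tumors of the group, were those of Tcrg-C3 in non-responder 32R (0.0232), Trbv14 in non-responder 29L (0.0249), Tcrg-V6 in control 16R (0.0526), and Tcrg-V4 in non-responder 33R (0.0317) and control 20R (0.0229).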

How the results depend on the processing

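Against non-responders, 1612 genes were called in responders, and the number was 2634 with DESeq2, 2973 with a random effect of the mouse in limma-voom, 520 with 1 tumor per mouse, 689 with only the groups compared, and 569 to 1978 without 1 tumor in turn. Against control it was 2147, and 1190 to 3385 without 1 tumor, the extremes being without 20R and without 33R. Between non-responders and control edgeR called none (758 at an unadjusted p under 0.05), DESeq2 18, the fit without a filter 3, and edgeR without 1 tumor 0 to 5.

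Of the T cell receptor genes, 2 were called against non-responders. DESeq2 called 4, the filter on mean log2 CPM 1, limma on log2(TPM + 1) 6, and the fit of only the groups compared 1, with 0 (without 24L or 30R) to 3 without 1 tumor. The TPM scale moved the median of all genes to 0.17. Against control 2 were called, with 4 by DESeq2, 1 under the filter on mean log2 CPM, 5 with 1 tumor per mouse, and 1 to 4 without 1 tumor. Between non-responders and control, where edgeR called 0 (4 at an unadjusted p under 0.05), DESeq2 called 1. The call of Tcrg-C1 in responders against control held without each tumor and in 7 of the 7 alternatives in which it was tested. Under the filter on mean log2 CPM it was not tested. Trac was called in 7 of 8 alternatives against non-responders and in 6 of 8 against control. Trbv14 was called against non-responders in 3 of the 6 alternatives in which it was tested. It was not tested under the filter on mean log2 CPM or in the fit of only the groups compared.

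Among single genes, the differences that changed sign were all between non-responders and control and passed no test. Trbc2 became 0.000602 under the filter on mean log2 CPM and 0.0627 with 1 tumor per mouse, and ranged from -0.12 to 0.19 without 1 tumor. Trbc1 became -0.10 in TPM, -0.0485 with limma-voom, and -0.25 with 1 tumor per mouse, and ranged from -0.37 to 0.21. With 1 tumor per mouse Trdc became 0.0218, Trav3-3 0.0112, and Trbv19 0.25. Without 1 tumor Trac ranged from -0.30 to 0.0760, Trdc from -0.18 to 0.11, and Trbv19 from -0.55 to 0.18.

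Per count of the CD3 genes, the difference between responders and non-responders was -0.17 (alpha-beta) and -0.15 (gamma-delta). The gamma-delta share was 8.32, 7.85, and 8.13% for responders, non-responders, and control in TPM, and on constant genes alone 21.4% in non-responders and 23.1% in control. Alpha V segments detected with 3 or more counts numbered 8.6, 5.0, and 4.2 in the same order, and merged subgroups 11, 11.5, and 9.8 (at fixed depth 8.75, 9.99, and 8.73). Beta V segments with 3 or more counts numbered 10, 6.0, and 7.6, and beta subgroups 12.2 in responders. The causes of these changes were not tested. No paired analysis was possible because the groups share no mouse or replicate number. Few counts per V segment limit all segment results.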
